A study of Homo sapiens with 18 samples.

Results

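The 7SL RNAs are the RNA component of the signal recognition particle (SRP). They were followed here as 4 Ensembl IDs out of 60666 listed in the deposited tables. The members are RN7SL1 (ENSG00000276168), RN7SL2 (ENSG00000274012), RN7SL3 (ENSG00000278771) and the 7SL pseudogene ENSG00000240869. They were chosen by their IDs, with their deposited fold changes already known, including the low IP values against Control, so those values describe the members and test nothing. Of the 4, 3 had values in every table. RN7SL2 was listed with a mean of 0 in the 3 immunoprecipitation (IP) tables and had no row in the input table.

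7SL RNA is a short noncoding transcript made by RNA polymerase III. Together with SRP proteins it forms a particle that recognises signal peptides on translating ribosomes and brings them to the endoplasmic reticulum. One end of the RNA, the Alu domain, binds the SRP9 and SRP14 proteins and slows elongation, and the other end, the S domain, carries SRP54, the subunit that reads the signal peptide. Alu repeats, whose inverted copies form much of the double-stranded RNA that ADAR enzymes edit in human cells, descend from 7SL RNA. The genome also holds many 7SL pseudogenes that resemble the functional genes.

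The RNA came from U373-MG, an established human glioblastoma cell line, in which FLAG-tagged proteins were precipitated after UV crosslinking at 150 mJ/cm2. The cells carried FLAG-tagged wild-type ADAR3 (ADAR3 WT), FLAG-tagged ADAR3 with a mutated R-domain (ADAR3 R-Mutant), or an empty retroviral vector giving drug resistance (Control). All 3 lines were thus transduced and grown with G418, and the labels name neither the promoter of the vector nor whether a line is 1 clone. ADAR3 is a brain-enriched relative of the editing enzymes without measurable deaminase activity of its own. Its R-domain, a stretch rich in arginine, contacts single-stranded RNA, and the series asked how it shapes the set of RNAs bound by ADAR3.

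Per the labels' protocols, ribosomal RNA was depleted before strand-specific library preparation, while the molecule label reads polyA RNA; 7SL RNA has no long poly(A) tail. Each genotype had 3 input and 3 IP libraries, 18 in all. The values are the authors' deposited comparisons rather than levels per library. Columns of single libraries in the input table match no label and were not used. Spread between libraries therefore enters the results here only through the deposited standard error, and the depth of each library was not analysed here. The labels do not say that replicates came from separate cultures, so this spread may be technical. The files pair no Ensembl ID with a gene symbol. For that reason the transduced gene, the identity markers of the cell line and the mRNAs of the SRP proteins, SRP receptor and translocon were not examined here.

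In the RefSeq annotation of GRCh38.p14 the 3 named 7SL genes are RNA genes of 299 bases each, lying close together on chromosome 14. RN7SL1 is at chr14:49586580-49586878, RN7SL3 at chr14:49853616-49853914 and RN7SL2 at chr14:49862551-49862849. A gap of 266737 bases separates RN7SL1 from RN7SL3, and 8636 bases separate RN7SL3 from RN7SL2. The same annotation lists 684 further symbols of the 7SL pseudogene series.

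RN7SL1 was the ID with the highest mean normalized count in all 4 of the authors' deposited tables. This mean is taken over the libraries of the authors' model, which the sources used here do not list. It was 453191 in ADAR3 WT over Control, 425070 in ADAR3 R-Mutant over Control and 330517 in ADAR3 R-Mutant over ADAR3 WT. In the input table it was 591440, where the next ID had 422797. RN7SL1 alone held 1.52%, 1.55%, 1.06% and 1.64% of the summed means in these 4 tables in the same order.

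RN7SL3 was far less abundant by this measure, although RefSeq gives it the same length. Its mean normalized count in the authors' deposited tables was 678 in ADAR3 WT over Control and 643 in ADAR3 R-Mutant over Control. It was 523 in ADAR3 R-Mutant over ADAR3 WT and 942 in the input. RN7SL1 thus exceeded RN7SL3 by 628-fold in the input table and by 632-fold to 669-fold in the IP tables. The pseudogene ENSG00000240869 had a mean normalized count of 131, 130 and 108 in the same 3 IP tables and 190 in the input, per the authors' deposited tables.

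The 7SL genes share most of their sequence, and RN7SL1 and RN7SL2 are nearly identical copies. The sources used here do not state how reads that match several loci were assigned. The value of 0 for RN7SL2 is therefore no measure of its expression. Values of RN7SL1, RN7SL3 and ENSG00000240869 may each hold reads from other 7SL loci, which was not tested, and the 3 are not independent observations of the conditions.

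With ADAR3 WT, 7SL RNA stood among the lowest RNAs of the table in IP enrichment relative to Control. IP enrichment is read here as IP divided by input in the first genotype, divided by the same quotient in the second, on the log2 scale. The labels do not state this reading, and the fold differences given for the IP depend on it. In the authors' deposited table for ADAR3 WT over Control, the log2 value of RN7SL1 was -5.13 with a standard error of 1.39, which is 35.0-fold lower. RN7SL3 had -5.02 ± 0.35, or 32.4-fold lower, in the authors' deposited table. ENSG00000240869 had -5.08 ± 0.54, or 33.8-fold lower, in the authors' deposited table. Counted from the lowest fold change among 13617 tested IDs whose mean was 50 or more, RN7SL1 ranked 2, ENSG00000240869 ranked 3 and RN7SL3 ranked 4.

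The 3 estimates lay close together but differed in precision. Their fold changes spanned 0.11 on the log2 scale, less than the smallest of their standard errors, 0.35. The 95% interval ran from -7.86 to -2.41 for RN7SL1, from -5.70 to -4.33 for RN7SL3 and from -6.13 to -4.02 for ENSG00000240869. The median log2 fold change of the 3 was -5.08, where the median of all tested IDs was 0.01. Counts were normalized between libraries, so lower here means lower relative to the other RNAs.

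All 3 tested members passed as lower in ADAR3 WT over Control (normal test of the deposited fold change over its standard error, Benjamini-Hochberg adjusted p under 0.05 over all tested IDs). Of the 21121 IDs tested, 8.14% were called lower by this rule. The members were chosen with these values known, so nothing is read from that count. The call of RN7SL1 was lost when fold over standard error was rescaled to its spread across genes, with an adjusted p of 0.294.

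With ADAR3 R-Mutant, the same RNAs were also far below Control, by somewhat less than with ADAR3 WT in all 3 point estimates. In the authors' deposited table for ADAR3 R-Mutant over Control, RN7SL1 had a log2 value of -4.22 ± 1.23, or 18.7-fold lower. RN7SL3 had -3.96 ± 0.39, or 15.6-fold lower, in the authors' deposited table. ENSG00000240869 had -4.42 ± 0.50, or 21.5-fold lower, in the authors' deposited table, the lowest of the 13515 tested IDs whose mean was 50 or more. RN7SL1 had rank 3 and RN7SL3 rank 7 in that order.

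The spread among the members was wider in this comparison, at 0.46 on the log2 scale, against a smallest standard error of 0.39. The 95% interval ran from -6.64 to -1.81 for RN7SL1, from -4.73 to -3.20 for RN7SL3 and from -5.40 to -3.45 for ENSG00000240869. Their median log2 fold change was -4.22, where the median of all tested IDs was 0.03. All 3 tested members passed as lower by the normal test, where 7.95% of 21120 IDs did. Nothing is read from this count either, and both comparisons use the same Control libraries. Rescaling again ended the call of RN7SL1, with an adjusted p of 0.395.

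**Figure D1:**
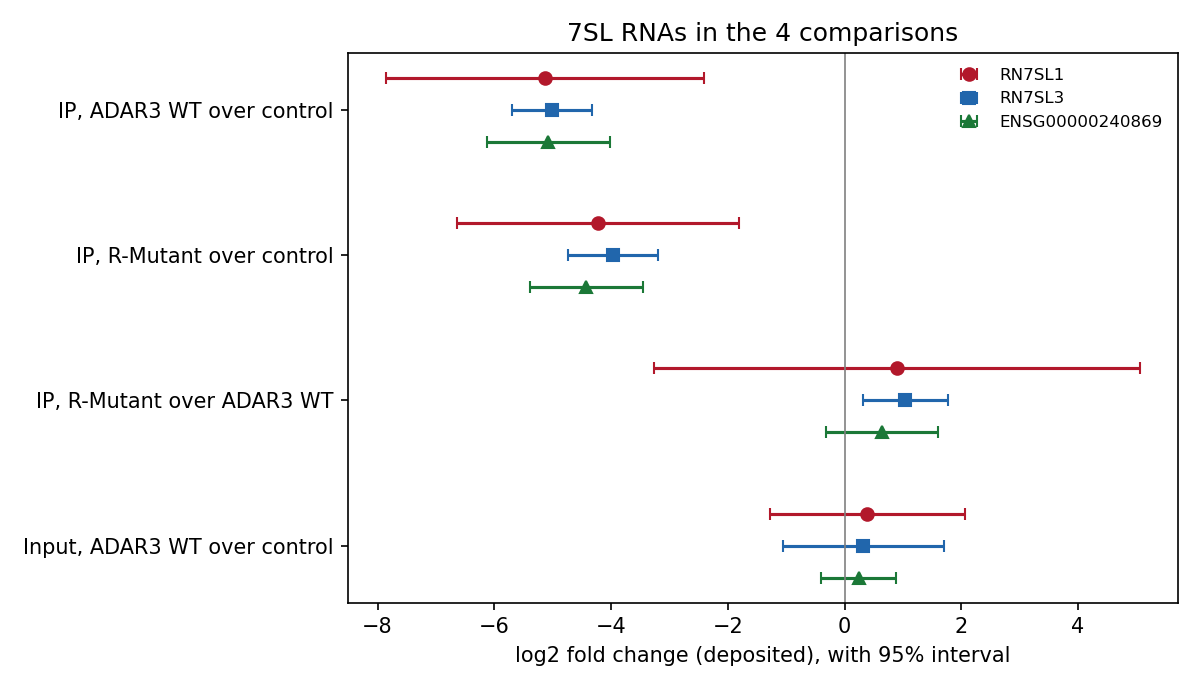
Deposited log2 fold change of RN7SL1, RN7SL3 and ENSG00000240869 (horizontal axis) in the 4 comparisons (rows); points are estimates and bars are 95% intervals from the deposited standard errors. The IP values against Control lie between -5.13 and -3.96, while the intervals for input all include 0, and RN7SL1 has the widest interval in every row.

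Most RNAs of high abundance were not near such a fold change. Of the 383 IDs with a mean of at least 10000 in ADAR3 WT over Control, 88 were called lower and 28 higher, with a median log2 fold change of -0.09. Over all tested IDs 1720 of 21121, or 8.14%, were called lower, a smaller share than among these abundant IDs. RN7SL1 was the lowest of them, and the next was ENSG00000259001 at -4.67 ± 0.31 in the authors' deposited table. In ADAR3 R-Mutant over Control there were 326 such IDs, 73 called lower and 23 higher, with a median of -0.07. The share called lower was again smaller over all tested IDs, at 1678 of 21120, or 7.95%. There ENSG00000259001 stood at -4.23 ± 0.32 in the authors' deposited table, beside RN7SL1 at -4.22.

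**Figure D2:**
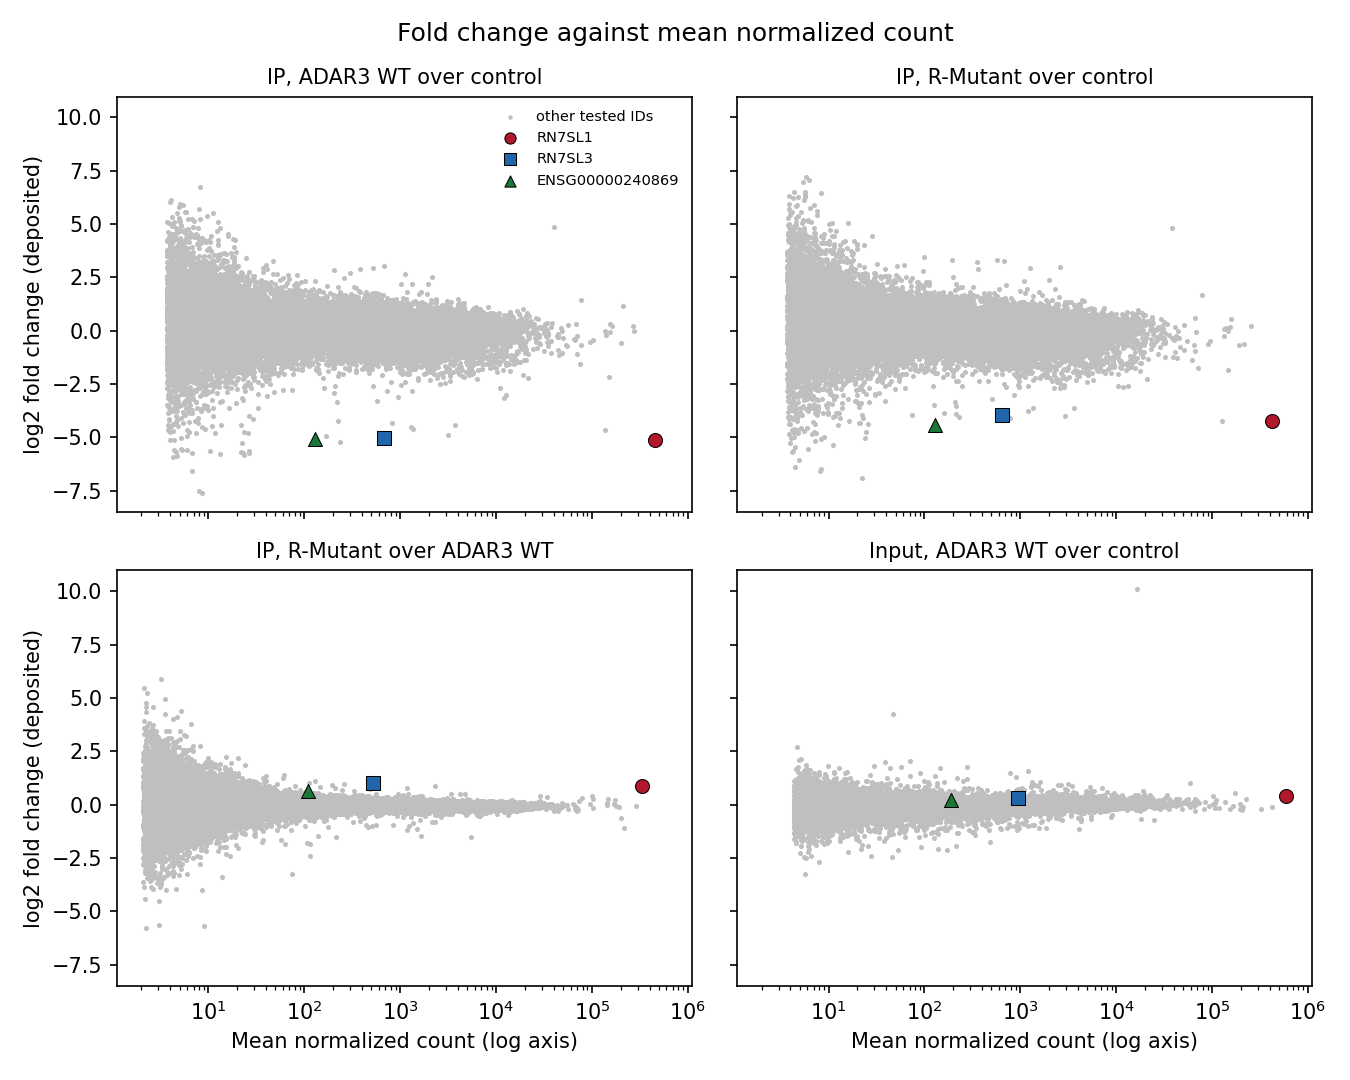
Deposited log2 fold change (vertical axis) against mean normalized count (horizontal log axis) for every tested ID in the 4 comparisons, with the 7SL RNAs in colour. The 3 members sit at the lower edge in both IP comparisons with Control, at -5.13 to -3.96, and above most IDs of similar mean in ADAR3 R-Mutant over ADAR3 WT, at 0.64 to 1.04.

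The direct comparison sets the enrichment of 7SL RNA with ADAR3 R-Mutant beside that with ADAR3 WT, relative to other RNAs. With both proteins these RNAs lay far below Control, which carried an empty vector. The proteins were in separately named lines, and the amount of each tagged protein was not examined. An effect of the R-domain therefore cannot be told apart from other differences between the lines. Per the authors' deposited table, RN7SL3 had a log2 value of 1.04 ± 0.37, or 2.06-fold higher in ADAR3 R-Mutant. RN7SL1 had 0.89 ± 2.12 and ENSG00000240869 had 0.64 ± 0.49 in the authors' deposited table. All 3 point estimates were positive, and their ranks from the highest value were 4 for RN7SL3, 9 for RN7SL1 and 24 for ENSG00000240869 among 13789 tested IDs whose mean was 50 or more. The median of all tested IDs was -0.02.

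None of the 3 passed the normal test in this comparison, each with a Benjamini-Hochberg adjusted p of 1.00, and 1 of 23385 IDs did, or 0.00428%. At an unadjusted p under 0.05, RN7SL3 passed with 0.00542, where 0.239% of all IDs passed as higher. That share is below what the threshold alone would pass as higher if no ID differed. The deposited standard errors were thus wide for these fold changes, and failing the normal test does not show equal enrichment. The members were chosen with their low ADAR3 WT values known, and this comparison shares libraries with those values. The ranks and p-values of the members here therefore describe them and test nothing. The unadjusted p was 0.193 for ENSG00000240869 and 0.674 for RN7SL1. The 95% interval ran from 0.31 to 1.78 for RN7SL3, from -0.32 to 1.60 for ENSG00000240869 and from -3.27 to 5.06 for RN7SL1. A 2-fold difference was thus inside all 3 intervals, and for RN7SL1 one of either direction was.

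The authors' adjusted p gave another picture for the same rows. In the authors' deposited table it was 1.33e-91 for RN7SL3, 3.03e-78 for ENSG00000240869 and 0.164 for RN7SL1 in ADAR3 R-Mutant over ADAR3 WT. By it 51.1% of all IDs passed. It comes from a likelihood ratio test whose p-values match 7 degrees of freedom, so it covers more terms than the fold change printed beside it. With fold over standard error rescaled to its spread across genes, RN7SL3 passed with an adjusted p of 0.00199, one of 78 IDs, while ENSG00000240869 had 0.579 and RN7SL1 had 0.993. Given how the members were chosen, nothing is read from that pass.

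The 3 IP comparisons share libraries and gave nearly additive fold changes. For RN7SL1 the sum of ADAR3 WT over Control and ADAR3 R-Mutant over ADAR3 WT was -4.24, against -4.22 deposited for ADAR3 R-Mutant over Control. The sum was -3.98 against -3.96 for RN7SL3, and -4.44 against -4.42 for ENSG00000240869. Across 13284 IDs with a mean of at least 50 in all 4 tables, the median residual was -0.0135. The positive values of ADAR3 R-Mutant over ADAR3 WT are therefore the gap between the values against Control, and not a further observation.

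In input RNA, 7SL RNA did not pass the test between ADAR3 WT and Control. Input is bulk RNA, in which fewer cells of a kind and less RNA per cell cannot be told apart. Per the authors' deposited table, RN7SL1 had a log2 value of 0.39 ± 0.85, RN7SL3 had 0.32 ± 0.70 and ENSG00000240869 had 0.24 ± 0.33. Their 95% intervals ran from -1.28 to 2.06, from -1.06 to 1.70 and from -0.41 to 0.89. For RN7SL1 and RN7SL3 the intervals included a 2-fold difference in either direction, and that of ENSG00000240869 excluded one. The adjusted p from the normal test was 1.00 for each, with unadjusted values of 0.649 for RN7SL1, 0.649 for RN7SL3 and 0.466 for ENSG00000240869, and 0.289% of 20411 IDs passed.

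The mean counts of 7SL RNA were higher in the tables that include Control. If each IP table covers the pair of genotypes in its name, ADAR3 WT over Control and ADAR3 R-Mutant over ADAR3 WT differ in Control against ADAR3 R-Mutant libraries. The mean in the table with Control over the mean in the one without was 1.37 for RN7SL1, 1.30 for RN7SL3 and 1.21 for ENSG00000240869. Among the 13284 IDs above, the median of this ratio was 0.945 and the middle 95% ran from 0.731 to 1.17, so all 3 lay above that range. On that reading, a high Control level in the IP raises this ratio and also lowers the values against Control. The members were chosen with those low values known, so their place above the range is a description and no further support. The input mean over the mean in ADAR3 WT over Control was 1.31, 1.39 and 1.45 for the same 3 members, inside the middle 95% of 0.727 to 1.63. The tables were normalized separately, so these ratios are set across tables and were not tested.

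RN7SL1 had the least precise fold change among the abundant RNAs, those with a mean of at least 10000, in all 4 comparisons. In ADAR3 WT over Control its standard error was 1.39, where these RNAs had a median of 0.21 and a next highest value of 1.04. In ADAR3 R-Mutant over ADAR3 WT it was 2.12, against a median of 0.18 and a next highest of 0.90. In ADAR3 R-Mutant over Control it was 1.23, against 0.23 and 1.00, and in input 0.85, against 0.21 and 0.68. Over all IDs whose mean was 500 or more, its standard error ranked 1 from the highest in ADAR3 WT over Control and in ADAR3 R-Mutant over ADAR3 WT, 3 in ADAR3 R-Mutant over Control and 6 in input.

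The less abundant members had smaller standard errors than RN7SL1 in every comparison. For RN7SL3 the standard error was 0.35 to 0.39 in the IP tables, where the median of IDs with a mean of at least 50 was 0.22 to 0.28. In input it was 0.70, which has rank 55 from the highest among 13661 such IDs. ENSG00000240869 had 0.33 in input and 0.49 to 0.54 in the IP tables. Of the IDs with a mean of at least 50, 1.04% had a higher standard error than it in ADAR3 R-Mutant over ADAR3 WT, 3.84% in ADAR3 WT over Control, 7.37% in ADAR3 R-Mutant over Control and 10.4% in input. Which libraries account for the wide error of RN7SL1 was not tested.

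**Figure D3:**
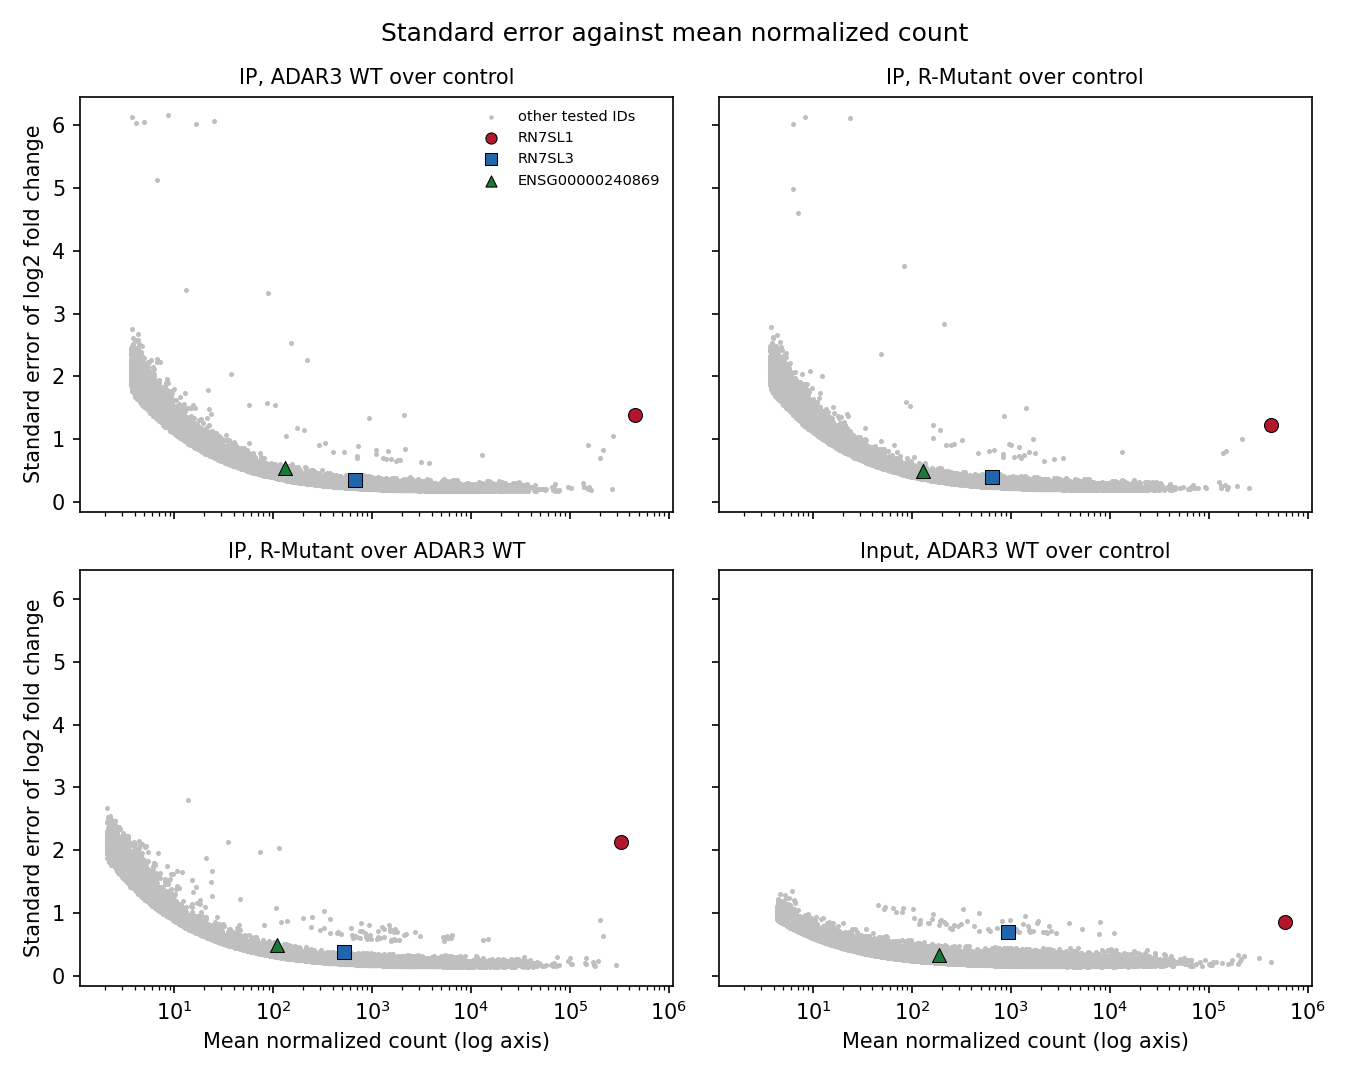
Deposited standard error of the log2 fold change (vertical axis) against mean normalized count (horizontal log axis) for every tested ID in the 4 comparisons, with the 7SL RNAs in colour. RN7SL1 stands at the far right with a standard error of 0.85 to 2.12, above the other IDs with a mean of at least 10000 in each panel. ENSG00000240869 has 0.33 to 0.54.

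Several IDs outside the members had a profile close to that of 7SL RNA across the 4 comparisons. They are not paired with symbols here, so whether some are further 7SL loci or share reads with them was not tested. Likeness was measured as the Euclidean distance over the 4 deposited log2 fold changes from the median profile of the 3 tested members, among the same 13284 IDs. The members themselves lay at 0.0867 (RN7SL1), 0.305 (RN7SL3) and 0.333 (ENSG00000240869). These distances are partly set by construction, because the median profile is made of the same 3 members. In ADAR3 R-Mutant over Control and in ADAR3 R-Mutant over ADAR3 WT the median was the value of RN7SL1 itself. The nearest ID outside the members was ENSG00000263740 at a distance of 0.326, closer than ENSG00000240869. It was followed by ENSG00000239437 at 0.453, ENSG00000259001 at 0.654, ENSG00000270141 at 0.778 and ENSG00000224165 at 0.804.

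ENSG00000263740 had log2 fold changes of -4.89 ± 0.34 in ADAR3 WT over Control and -4.01 ± 0.38 in ADAR3 R-Mutant over Control in the authors' deposited tables. Its value in ADAR3 R-Mutant over ADAR3 WT was 0.87 ± 0.34 in the authors' deposited table, and 0.15 ± 0.34 in input. ENSG00000239437 had -4.95 ± 0.56, -3.86 ± 0.55, 1.10 ± 0.51 and 0.21 ± 0.76 in the same order of the authors' deposited tables. Both IDs were picked for closeness over these same values, so the likeness is a description.

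The 5 nearest IDs differed in how their mean counts depended on the Control libraries. The ratio of the mean in ADAR3 WT over Control to that in ADAR3 R-Mutant over ADAR3 WT was 1.37 for ENSG00000263740, 1.29 for ENSG00000239437 and 1.36 for ENSG00000259001, close to the 1.21 to 1.37 of the 7SL members. It was 2.66 for ENSG00000270141 and 5.27 for ENSG00000224165. The last of these also had an input mean of only 155, against 1375 in ADAR3 WT over Control in the authors' deposited tables, where each 7SL member had a higher mean in input. A similar profile of fold changes therefore came with different ratios between the means of the tables.

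**Figure D4:**
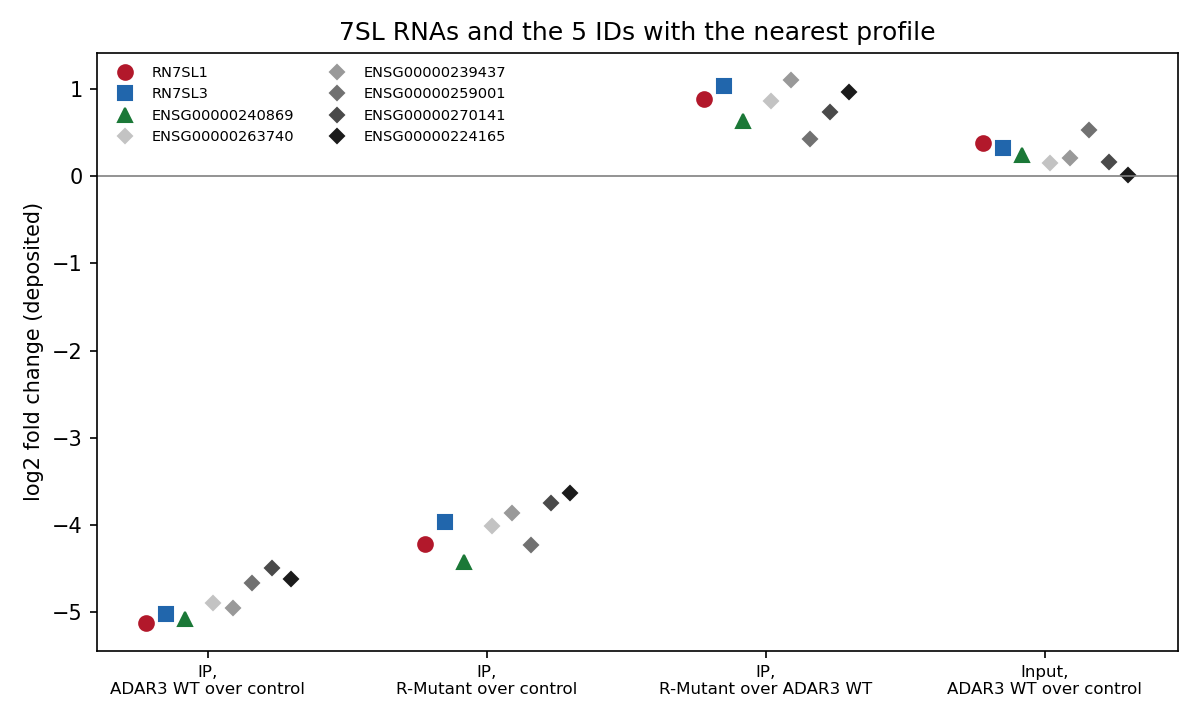
Deposited log2 fold changes (vertical axis) of the 3 tested 7SL RNAs (coloured) and the 5 IDs with the nearest profile (grey diamonds) in the 4 comparisons (horizontal axis), offset sideways for legibility. All 8 lie at -5.13 to -4.50 in ADAR3 WT over Control and at 0.43 to 1.10 in ADAR3 R-Mutant over ADAR3 WT.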

How the data were processed

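Alignment, counting and testing tools are listed in the submitters' processing notes as STAR 2.7.7a, featureCounts and DESeq2, with the GRCh38 build. The sources used here do not state the annotation, the model formula or which libraries entered a model. Per the file headers, each deposited table gives a mean signal (the mean of normalized counts), a log2 fold change and its log2 standard error. The authors' test statistic is a score without a fixed range. The deposited p-values derive from it, and the adjusted ones are left out at low means. In the IP tables the authors' p-values match a chi-square with 7 degrees of freedom (relative tolerance 0.01), among IDs with a positive statistic. A negative statistic, which a chi-square cannot take, was given for 2802 IDs in ADAR3 WT over Control. It was given for 1932 in ADAR3 R-Mutant over Control and 2132 in ADAR3 R-Mutant over ADAR3 WT. The tested 7SL members had positive values, and the reason for the negative ones was not tested. In the input table the statistic is the fold change over its standard error.

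The test used here divided each deposited log2 fold change by its standard error and read the result, two-sided, against a normal distribution. It was adjusted by Benjamini-Hochberg at 0.05 across all IDs for which the authors gave an adjusted p-value. The procedure was also run on simulated folds whose errors were drawn from the deposited standard errors. Such a run cannot show whether those standard errors match the spread of the real data. IP folds were read as a ratio of IP over input between genotypes, which the labels do not state. It rests on 3208 IDs of low input mean (under 10), where regression on the input fold gave slopes of -0.82 for ADAR3 WT over Control and 0.46 for ADAR3 R-Mutant over ADAR3 WT. Named IDs were the members and the 5 nearest profiles. ENSG00000259001 is also named as an abundant ID, after its values were seen. Members, lists and tests were chosen with earlier results of these data known. The input table's 6 per-library columns match no label and were not used. RefSeq (GRCh38.p14) gave locations by symbol. Tools were Python 3.11.15, numpy 2.4.6, pandas 2.3.3, scipy 1.17.1, statsmodels 0.14.6 and matplotlib 3.10.9.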

Additional observations from a re-analysis of the deposited data

How the results depend on the processing

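The alternatives were the authors' adjusted p, an adjusted p under 0.01, a log2 fold of 1 or more in either direction, a mean of at least 50, no filter on the mean, and rescaling of fold over standard error. In the 2 IP comparisons with Control, 34 of 36 combinations of member, comparison and alternative kept their call. The members were chosen with their low values known and are not independent, and both comparisons use the same Control libraries. Nothing is therefore read from that number. Across the alternatives the number of all IDs called in these 2 comparisons moved widely, from most by the authors' adjusted p to fewest under rescaling. For ADAR3 WT it was 9080 of 21121 by the authors' adjusted p and 428 under rescaling, and for ADAR3 R-Mutant 8626 and 335 of 21120. The exceptions were RN7SL1 under rescaling, with an adjusted p of 0.294 for ADAR3 WT and 0.395 for ADAR3 R-Mutant. For ADAR3 R-Mutant over ADAR3 WT, 0 members passed by the main rule, where 1 of 23385 IDs did. By the authors' adjusted p 2 members passed (RN7SL3 and ENSG00000240869), where 11947 of the 23385 IDs did. Under rescaling 1 member passed (RN7SL3), where 78 of the 23385 IDs did. That comparison shares libraries with the low values the members were known for, so these counts are a description. The authors' test covers more terms than the fold change, and rescaling assumes that most RNAs do not differ. In input, 0 members passed under any alternative listed. There rescaling gave the most calls, with 489 of 20411 IDs passing, against 59 by the main rule and 37 at an adjusted p under 0.01. No paired analysis was possible because the IP tables hold no columns of single libraries and the 6 in the input table carry names that match no label, so leaving out a replicate was not run either. The lists of SRP protein, translocon and other RNA polymerase III genes were not run because IDs are not paired with symbols here. Depth per library was not analysed here, and the deposited standard error is the measure of precision.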

Other observations

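Beyond the 5 nearest profiles, 3 more IDs lay close to that of 7SL RNA before a gap. The number of IDs beyond the 5 given above was chosen after their values were seen. ENSG00000247092, ENSG00000282885 and ENSG00000244642 followed at distances of 0.978, 1.00 and 1.11, and the next ID, ENSG00000276180, lay at 2.23. In the authors' deposited table ENSG00000276180 had a log2 fold change of -3.29 ± 0.29 in ADAR3 WT over Control and 0.05 ± 0.31 in ADAR3 R-Mutant over ADAR3 WT. ENSG00000282885 and ENSG00000244642 had 0.25 ± 0.35 and 0.33 ± 0.44 in the authors' deposited table for ADAR3 R-Mutant over ADAR3 WT. These point estimates were below the 0.64 to 1.04 of the 7SL members. ENSG00000247092 had 0.79 ± 0.31 in the same authors' deposited table, inside that range. Differences from the members were not tested.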
